A study of Mus musculus with 6 samples.

Results

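Tspan8 and related tetraspanins were examined in mouse liver tumours that arose with and without a transgene that encodes AEG-1 (astrocyte elevated gene-1). The members were 10 named genes, namely Tspan8, Tspan2, Tspan3, Tspan4, Cd9, Cd63, Cd81, Cd82, Cd151 and Cd53. All probe sets whose single gene symbol in the platform annotation is one of these were taken, which gave 20 of the 22626 probe sets tested and covered 9 of the 10 genes. Cd63 had no probe set named for it alone and was not analysed here. Tspan8 and Tspan2 were picked because earlier results from the same 6 arrays had shown them to differ between the genotypes. Differences of the members are therefore given as a description, with no p-value for any of them. Counts of members by p are given beside the share over all probe sets, and nothing is read from them.

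The tumours came from 3 Alb/AEG-1 transgenic and 3 WT male mice, each on its own Affymetrix expression array. All 6 animals had received a single intraperitoneal dose of 10 µg per g body weight of the liver carcinogen N-nitrosodiethylamine (DEN) when 14 days old, and were killed at 28 weeks for collection of their liver tumours. DEN is converted to a DNA-alkylating agent by cytochrome P450 enzymes of hepatocytes. The transgenic line was made by injecting a 5.3-kb fragment of the Alb/AEG-1 construct into B6CBAF1/J embryos, and the labels give CD-1 as background strain for both genotypes. "Alb" refers to the albumin gene, whose promoter is active in hepatocytes. Values are log2 expression levels made by robust multi-array averaging (RMA). Array medians lay within 0.0289 log2 of each other, and their lower quartiles were between 4.21 and 4.31. The mean level of the 7 measured hepatocyte markers was between 13.53 and 13.57 in Alb/AEG-1 tumours and between 13.56 and 13.62 in WT tumours. This lies close to the top of the scale, where the highest values of the arrays were 14.85 to 14.86, so a difference in hepatocyte content may not show in it. Mtdh, the mouse gene for AEG-1, differed by -0.09 to 0.20 log2 on 6 probe sets, all overlapping between the genotypes, and whether these probe sets bind the RNA of the transgene is not given in the sources used here. The animal numbers in the titles form a lower range (Alb/AEG-1 replicates 1 and 2, WT replicate 1) and a higher range (Alb/AEG-1 replicate 3, WT replicates 2 and 3). No label says what these ranges mean.

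Tetraspanins are small membrane proteins that cross the lipid bilayer several times and bind each other and partner proteins such as integrins, forming membrane domains that organise adhesion, signalling and membrane fusion. Several of them, among them CD9, CD63 and CD81, are abundant in the membrane of extracellular vesicles. TSPAN8 is known in humans as an antigen of gastrointestinal, pancreatic and liver carcinomas, CD81 as an entry receptor of hepatitis C virus on hepatocytes, and CD82 as a suppressor of metastasis.

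The sequences before the transcription starts of Tspan8, Cd9 and Cd81 are shown because the first and second had the largest differences among the members by gene and Cd81 had overlapping groups. They were taken from RefSeq's promoter table on GRCm38.p6, 5′ to 3′ on the gene's strand, and end at the base before the start. The Tspan8 window is chr10:115817034-115817283 on the plus strand, the Cd9 window chr6:125494761-125495010 on the minus strand and the Cd81 window chr7:143052500-143052749 on the plus strand. Capitals mark matches to the motifs searched.
Tspan8: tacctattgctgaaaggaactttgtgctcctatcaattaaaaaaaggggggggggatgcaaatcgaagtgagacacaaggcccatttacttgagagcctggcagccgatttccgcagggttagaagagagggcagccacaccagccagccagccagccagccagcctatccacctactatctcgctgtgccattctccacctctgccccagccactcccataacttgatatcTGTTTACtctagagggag
Cd9: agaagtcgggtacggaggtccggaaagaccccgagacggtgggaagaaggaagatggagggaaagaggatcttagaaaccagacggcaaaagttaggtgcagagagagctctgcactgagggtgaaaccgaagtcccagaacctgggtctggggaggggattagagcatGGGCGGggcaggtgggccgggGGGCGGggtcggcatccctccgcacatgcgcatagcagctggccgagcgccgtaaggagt
Cd81: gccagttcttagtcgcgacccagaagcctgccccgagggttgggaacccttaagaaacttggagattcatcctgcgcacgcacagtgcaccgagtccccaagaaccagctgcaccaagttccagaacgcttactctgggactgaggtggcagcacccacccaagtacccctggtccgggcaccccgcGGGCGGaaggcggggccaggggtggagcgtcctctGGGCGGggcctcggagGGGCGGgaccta
A total of 7 motifs were searched on both strands in the 250 bases before each start. They were TATAAA, known as the TATA box, and TGTTTAC, bound by forkhead factors. GGGCGG is the GC box and CCAAT is named by its letters. CACGTG is an E-box. TGACTCA is the AP-1 motif, and AGATAA that of GATA factors. The Tspan8 window held 1 match, the forkhead motif at 18 to 12 bases before the start. That motif was found in 3.17% of the 32851 windows of the table and in 1 of the 16 windows of the 10 member genes. Forkhead factors of the FOXA group are known regulators of liver genes. The Cd9 window held 2 GC boxes and the Cd81 window 3, a motif that 32.7% of all windows and 6 of the 16 member windows held. TATAAA was in 12.4% of all windows and in 0 of the 16. CCAAT was in 33.8% of all windows and in 3 of the 16. CACGTG was in 6.02% of all windows and in 1 of the 16, a Tspan4 window. TGACTCA and AGATAA, in 4.46% and 9.99% of all windows, were in 0 of the 16. No motif match in a member window overlapped one of another motif. Several genes have more than 1 start, so the 16 windows are not independent, and a match is a description of the letters only.

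On its brightest probe set, Tspan8 was low in WT tumours, and high and uneven in Alb/AEG-1 tumours. This probe set, 1424649_a_at, was at 6.98, 9.87 and 8.30 in Alb/AEG-1 replicates 1, 2 and 3. In WT replicates 1, 2 and 3 it was at 3.49, 3.53 and 3.45. The groups were separated by a gap of 3.45 log2 between the lowest Alb/AEG-1 and the highest WT array. Within the groups, the Alb/AEG-1 arrays spanned 2.89 log2 and the WT arrays 0.09. The difference of 4.90 ± 0.61 log2 (SE from limma, n = 3 per group) was the second largest upward one of the 22626 probe sets, a rank that comes from the values that chose the gene. Among the arrays of lower animal number alone it was 4.93, and among those of higher number 4.82. The SD over Alb/AEG-1 arrays, 1.44, was the 33rd largest of all probe sets, whose median SD was 0.12. The WT values lie below the lower quartile of every array, so nothing is read from their narrow spread. The differences are between RMA levels, and no fold in RNA is drawn from them.

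The other Tspan8 probe sets differed far less. On 1420018_s_at the Alb/AEG-1 arrays were at 3.62, 5.20 and 4.02, against 3.21, 3.32 and 3.16 in WT (difference 1.05 ± 0.36). The groups did not overlap there, and Alb/AEG-1 replicate 2 was again highest and replicate 1 lowest. Without that highest array the difference was 0.59. On 1420017_at the Alb/AEG-1 arrays were at 5.06, 6.71 and 5.14 and the WT arrays at 4.37, 5.23 and 4.63, which overlap, and without Alb/AEG-1 replicate 2 the difference of 0.89 ± 0.44 became 0.35. On 1420019_at the levels were 3.97, 4.10 and 4.38 in Alb/AEG-1 and 3.91, 3.93 and 4.03 in WT tumours (0.19 ± 0.12). All 4 probe sets had a positive difference, and the mean of the 4 differed by 1.76 log2. The name of 1420018_s_at marks possible binding to related transcripts. Why the probe sets differ in size was not tested.

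**Figure D1:**
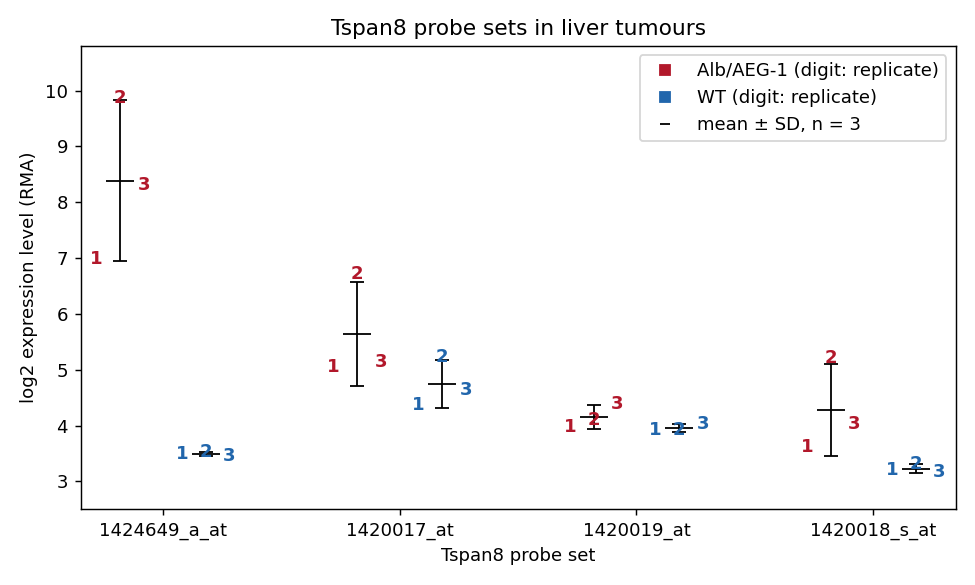
Level of each Tspan8 probe set (x axis) on each array (y axis, log2), with Alb/AEG-1 replicates in red left of WT replicates in blue, each drawn as its replicate number, and black bars for the mean ± SD of 3. On 1424649_a_at every Alb/AEG-1 array lies above 6.9 and every WT array below 3.6, while on 1420019_at both groups lie near 4.

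In bulk tumours, a change in the number of cells of a type and a change in RNA per cell cannot be told apart, so markers of epithelia in which Tspan8 is known to be expressed were set beside it. Of 5 measured cholangiocyte markers 3 had a positive difference, and their mean level was between 4.42 and 4.70 in Alb/AEG-1 and between 4.42 and 4.49 in WT tumours. The highest mean, 4.70, was that of Alb/AEG-1 replicate 2, the array with the most Tspan8. Sox9, a transcription factor of bile duct and progenitor cells, was at 5.79, 6.28 and 4.82 in Alb/AEG-1 and 5.77, 4.82 and 5.20 in WT tumours, with overlap (0.37 ± 0.38). It separated the lower from the higher animal numbers. With the range as a term its genotype difference was 0.04, and the higher range minus the lower was -0.99 log2. The other 4 (Krt19, Krt7, Epcam and Cftr) differed by -0.07 to 0.10, with overlap. Within the Alb/AEG-1 group Epcam and Cftr were highest in replicate 2, as Sox9 was, but Krt19 and Krt7 in replicate 3 (5.40 and 4.30). Sox9 varied most of the 5, so the place of replicate 2 in the mean leans on this gene. Of 7 gut and stomach epithelial markers 4 were positive, with mean levels of 5.71 to 5.87 in Alb/AEG-1, again highest in replicate 2, and 5.66 to 5.76 in WT tumours. Of these Vil1, which encodes the microvillus protein villin, was at 4.79, 5.09 and 4.20 in Alb/AEG-1, against 4.12, 3.99 and 4.13 in WT tumours, with its highest value on the same array as Tspan8. Tff1, a trefoil peptide of the stomach, was at 7.75 to 7.90 in Alb/AEG-1, against 7.96 to 8.08 in WT tumours. The other 5 (Cdx2, Cldn18, Tff2, Cdh17 and Fabp2) differed by -0.30 to 0.33, with overlap. Of 5 pancreatic acinar markers 3 were positive, and their mean was between 4.59 and 5.32 in Alb/AEG-1 and between 4.82 and 4.89 in WT tumours, with Alb/AEG-1 replicate 3 highest. RMA gives no zeros, so no marker is listed at 0. On all 6 arrays 1 cholangiocyte, 2 gut and 0 pancreas markers lay below the lower quartile. The part of these cells in the Tspan8 difference was not tested.

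The genes whose profile over the 6 arrays was nearest to that of Tspan8 were Scd2, Afp, Tff3, Lcn2, Bex1 and Akr1c18. Each gene was read from its brightest probe set, centred on its own mean, and ranked by the root mean square distance to Tspan8 in log2 units, so a large rise shared with Tspan8 counts most. The distances were 0.98, 1.02, 1.28, 1.31, 1.43 and 1.48 log2, against 1.64 for the next gene and a median of 2.59 over 12384 genes. Scd2, a stearoyl-CoA desaturase, was at 8.35, 9.35 and 8.46 in Alb/AEG-1 and 5.47, 5.79 and 4.79 in WT tumours. Afp, the fetal serum protein alpha-fetoprotein, was at 7.46, 9.57 and 7.69 in Alb/AEG-1 and 5.37, 5.48 and 4.92 in WT tumours. The other probe sets of these genes did not all follow. Scd2 differed by 3.37 on the brightest of 3 and by 1.05 and 0.53 on the others, the last with overlap. Afp differed by 2.99 on the brightest of 5 and by 4.92, 3.67, 0.66 and -0.07 on the others, the last with overlap. Lcn2, which encodes the siderophore-binding lipocalin 2, was at 6.35, 8.44 and 7.26 in Alb/AEG-1 and 5.05, 4.75 and 5.27 in WT tumours. On the brightest probe sets of Scd2, Afp, Lcn2, Bex1 and Akr1c18, Alb/AEG-1 replicate 2 was the highest array and replicate 1 the lowest of its group. This is the same order as for Tspan8, to whose profile the genes were matched. Tff3, a secreted trefoil peptide, kept the first but not the second of these places, with 9.90, 10.60 and 8.54 in Alb/AEG-1 and 6.48, 7.34 and 5.80 in WT tumours. Bex1 differed from the rest in that Alb/AEG-1 replicate 1, at 2.76, lay among the WT arrays at 2.81, 2.87 and 2.66, while replicates 2 and 3 were at 7.97 and 4.78. Without replicate 2 its difference of 2.39 ± 1.11 was 0.99. Akr1c18, a hydroxysteroid dehydrogenase, was at 6.85, 8.29 and 7.36 in Alb/AEG-1 and 5.26, 5.55 and 5.51 in WT tumours. These genes were selected for likeness over 6 arrays that fall into 2 groups, so no correlation is given and nothing is read from the shared order. In Alb/AEG-1 the order also held on Afp 1416645_a_at (7.49, 9.69 and 8.06) and 1436879_x_at (5.66, 7.61 and 5.87). Replicate 2 was instead lowest on Afp 1436881_x_at (4.65, 4.05 and 4.81) and Scd2 1415823_at (4.98, 4.63 and 5.12). On the overlapping probe set of each gene it lay in the middle.

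**Figure D2:**
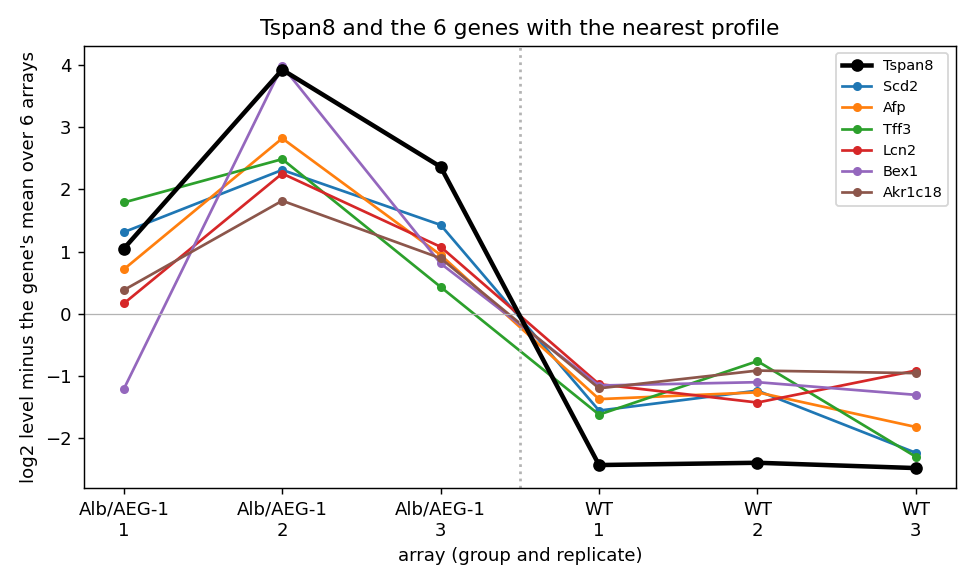
Log2 level minus the gene's own mean over 6 arrays (y axis) on each array (x axis, Alb/AEG-1 left of WT) for Tspan8 in black and the 6 genes nearest to it in colour. Alb/AEG-1 replicate 2 is the highest array for all 7 genes, of which 6 were chosen for likeness to Tspan8. The Tspan8 line drops lowest on the WT arrays, where it is almost flat at levels below the lower quartile of every array.

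Tspan2, a tetraspanin known from oligodendrocytes, and Tspan3 had small differences downwards. Tspan2 was at 4.54, 4.67 and 4.63 in Alb/AEG-1 and 5.01, 5.20 and 5.07 in WT tumours on probe set 1432417_a_at. These groups did not overlap and each lay within a narrow range (difference -0.48 ± 0.09 log2). The other 2 Tspan2 probe sets overlapped between the groups. They were at 4.93, 5.06 and 4.60 in Alb/AEG-1 against 4.82, 4.95 and 4.73 in WT on 1424568_at, and at 3.48, 3.93 and 3.75 against 3.62, 3.49 and 3.58 on 1424567_at. Their differences were 0.03 ± 0.13 and 0.15 ± 0.12, so 1 of 3 probe sets had the downward difference, and the mean of all 3 differed by -0.10. Tspan3 was at 6.12, 5.91 and 6.24 in Alb/AEG-1 and 6.31, 6.41 and 6.29 in WT tumours. Its groups were separated by the narrow step between Alb/AEG-1 replicate 3 and WT replicate 3 (difference -0.25 ± 0.10, or -0.16 without Alb/AEG-1 replicate 2).

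Cd9, which binds integrins and immunoglobulin-family partners and is needed on the egg for gamete fusion, was higher in Alb/AEG-1 tumours on its only probe set. It was at 8.93, 9.15 and 8.33 in Alb/AEG-1 replicates 1, 2 and 3, against 8.25, 7.38 and 7.63 in WT replicates 1, 2 and 3. The groups did not overlap, but Alb/AEG-1 replicate 3 lay close to WT replicate 1. The difference was 1.05 ± 0.27 log2, between 0.86 and 1.30 when 1 array was left out. In both genotypes the arrays of lower animal number were the higher ones, and the difference was 0.79 in the lower range and 0.83 in the higher. Platelets also carry Cd9. Of 4 measured platelet markers 2 had a positive difference, with mean levels of 5.29 to 5.52 in Alb/AEG-1 and 5.35 to 5.53 in WT tumours. Their part in the difference was not tested.

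Tspan4, a tetraspanin of migrasomes (vesicles left behind by migrating cells), followed the animal numbers more than the genotype. It was at 8.59, 9.09 and 9.64 in Alb/AEG-1 and 8.65, 9.82 and 9.76 in WT tumours, which overlap (difference -0.30 ± 0.36). The 3 arrays of lower number lay between 8.59 and 9.09 and the 3 of higher number between 9.64 and 9.82. With the range as a term of the model the genotype difference was 0.02 and the higher range lay 0.97 log2 above the lower. A difference of that size or more between the ranges was found in 0.601% of all probe sets. The ranges did not overlap in 15.8% of all probe sets and in 2 of the 20 here. Leaving out 1 array gave genotype differences between -0.68 (without WT replicate 1) and -0.05 (without Alb/AEG-1 replicate 1).

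Cd53, a tetraspanin of leukocytes, was at 6.04, 6.55 and 6.53 in Alb/AEG-1 and 6.07, 5.70 and 5.96 in WT tumours. The groups overlapped through Alb/AEG-1 replicate 1, which lay among the WT arrays (difference 0.46 ± 0.16). Arrays of lower animal number differed by 0.22 and those of higher number by 0.70. Of the leukocyte lists, macrophage and Kupffer cell markers had 8 of 8 genes positive, with mean levels of 7.07, 7.25 and 7.56 in Alb/AEG-1 and 7.14, 6.71 and 6.80 in WT tumours. As for Cd53, Alb/AEG-1 replicate 1 lay below WT replicate 1. B cell markers had 2 of 4 genes positive (4.45 to 4.75 in Alb/AEG-1, 4.52 to 4.62 in WT) and T and NK cell markers 2 of 6 (4.46 to 4.70 in Alb/AEG-1, 4.57 to 4.75 in WT). Neutrophil markers had 2 of 4 positive, with mean levels of 4.47 to 5.24 in Alb/AEG-1 and 4.24 to 5.16 in WT tumours. Endothelial markers had 3 of 6 positive (6.29 to 6.47 in Alb/AEG-1, 6.22 to 6.35 in WT), and stellate cell and fibroblast markers 4 of 8 (6.86 to 7.04 in Alb/AEG-1, 6.75 to 7.01 in WT). Their part in the Cd53 values was not tested.

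Cd81, Cd82 and Cd151 differed by at most 0.20 log2 on any of their probe sets. Cd81, part of the B cell co-receptor and a partner of claudin-1, was at 11.51, 11.49 and 11.30 in Alb/AEG-1 and 11.22, 11.38 and 11.28 in WT tumours (0.14 ± 0.09). Cd82 was at 9.17, 9.16 and 9.35 in Alb/AEG-1 and 9.06, 9.33 and 9.14 in WT tumours on 1416401_at (0.05 ± 0.10), and differed by -0.17 ± 0.11 on 1449611_at. Both overlapped between the groups. Cd151, which binds laminin receptors of the integrin family, was read by 6 probe sets with differences between -0.15 and 0.20. On 1451232_at it was at 8.16, 8.36 and 8.36 in Alb/AEG-1 and 8.12, 8.14 and 8.04 in WT tumours, without overlap (0.20 ± 0.09). The other 5 probe sets overlapped, 2 with a negative and 3 with a positive difference, and 3 of the 6 have names that mark possible binding to related transcripts.

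**Figure D3:**
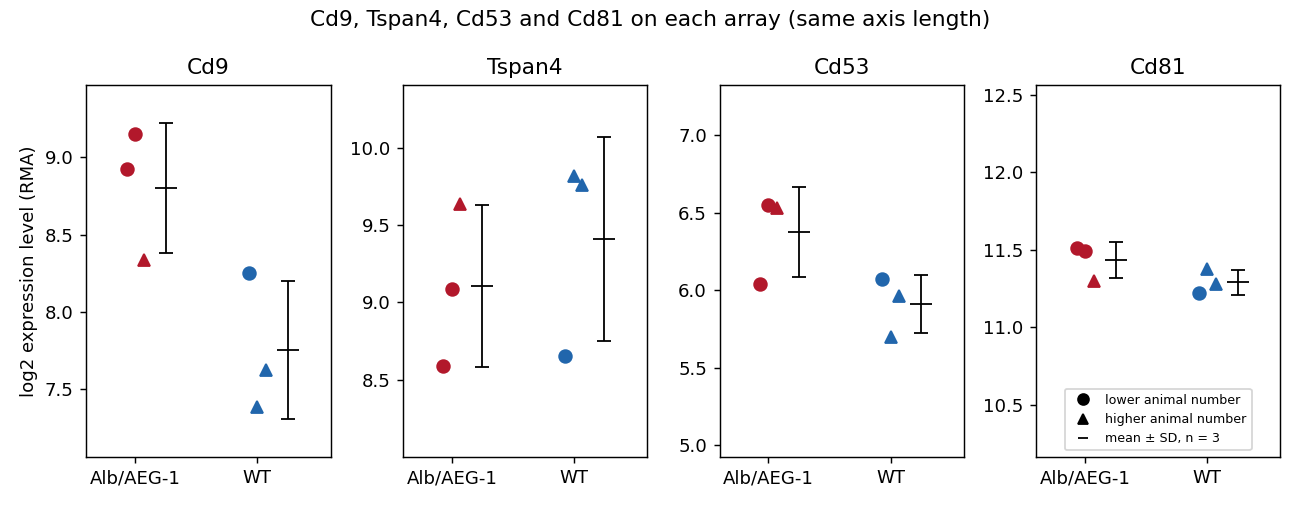
Level of Cd9, Tspan4, Cd53 and Cd81 (y axis, log2, the same length in each panel) on each array, Alb/AEG-1 in red left of WT in blue, circles for lower and triangles for higher animal numbers, bars for the mean ± SD of 3. Cd9 separates the genotypes, Tspan4 separates circles from triangles, Cd53 overlaps by 1 array and Cd81 moves little.

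Over the 20 probe sets, 14 differences were positive and 6 negative, with a median of 0.09 log2, against -0.01 over all 22626. The median size of the difference without its sign was 0.18, against 0.10 over all. The groups did not overlap in 6 of the 20, with 4 above and 2 below WT, where 14.7% of all probe sets did not overlap (6.28% higher, 8.38% lower). By limma with Benjamini-Hochberg adjustment 0 of the 20 passed 0.05, as against 0.00442% of all probe sets. At an unadjusted p below 0.05 there were 6 of the 20, 4 of them higher and 2 lower, beside 8.06% of all probe sets (3.68% higher, 4.38% lower). Since the genes were chosen with this contrast known, nothing is read from these counts.

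**Figure D4:**
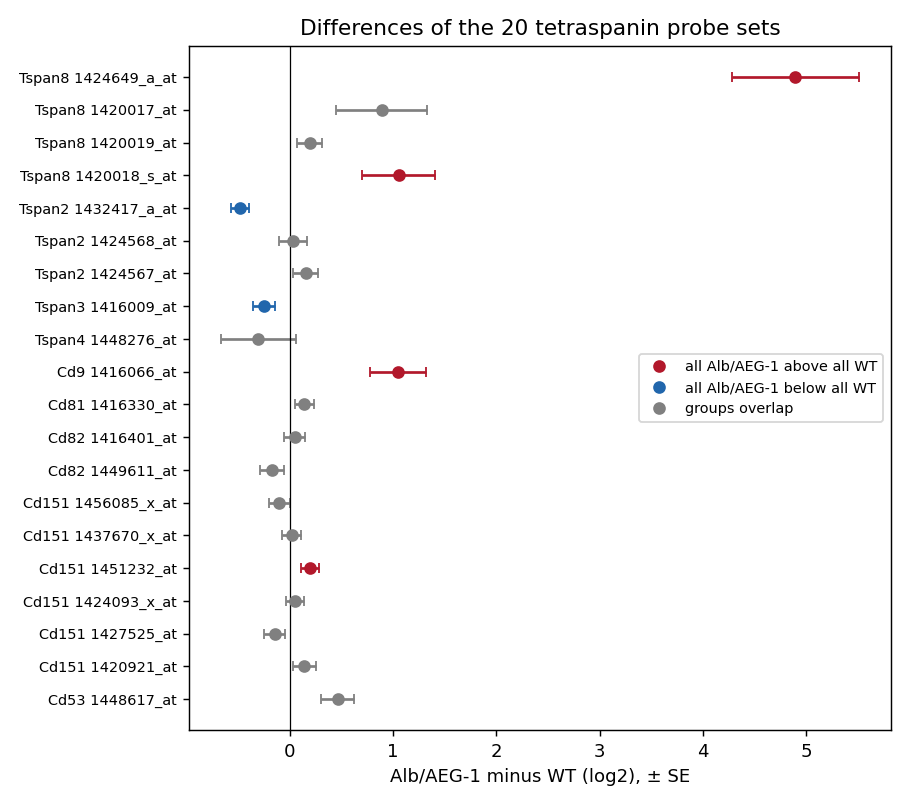
Difference between Alb/AEG-1 and WT tumours (x axis, log2, bars ± SE from limma) for each of the 20 tetraspanin probe sets (y axis). Red and blue points mark probe sets whose arrays do not overlap between the groups. Tspan8 1424649_a_at stands alone at 4.90, and 13 probe sets lie within 0.3 of 0.

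Tetraspanins outside the named genes were set beside the members as a description, and nothing is read from the share of them at a low p. Of 21 such genes, on a list chosen with earlier results of these data known, 17 were measured, by 28 probe sets. Of these 0 passed with limma over all probe sets, and 1 had an unadjusted p below 0.05 (3.57%, against 8.06% of all probe sets). The median difference was -0.01 log2, the same as over all probe sets. This was Tspan12, a component of norrin and Frizzled-4 signalling, at 9.21, 9.29 and 9.10 in Alb/AEG-1 and 9.35, 9.42 and 9.46 in WT tumours (-0.21 ± 0.09, limma adjusted p = 0.616, on a probe set whose name marks possible cross-binding). The next by p were Tspan5 (-0.21 ± 0.10), the urothelial plaque gene Upk1a (-0.22 ± 0.12) and Tspan6 (-0.19 ± 0.11), each with overlapping groups. On 1431530_a_at Tspan5 differed by -0.03 ± 0.11, and on 1448501_at Tspan6 differed upwards, by 0.12 ± 0.10. Tspan5, Tspan10, Tspan14, Tspan15, Tspan17 and Tspan33 encode the group that escorts the protease ADAM10 to the cell surface. Their 11 probe sets all overlapped between the groups, with differences from -0.21 to 0.38, 4 positive and 7 negative. Since 14.7% of all probe sets do not overlap, little is read from that count. The largest of these differences, 0.38 ± 0.43, was that of Tspan33 on 1455618_x_at, whose name marks possible cross-binding. It was at 7.94, 7.77 and 6.46 in Alb/AEG-1 and 7.52, 6.39 and 7.12 in WT tumours. With the range of animal numbers as a term the genotype difference was 0.02, and the higher range minus the lower was -1.08 log2. On the other Tspan33 probe sets the genotypes differed by only -0.06, 0.04 and 0.06, and the higher range minus the lower was -0.35, -0.45 and -0.50. Tspan4 was therefore not alone in following the animal numbers.

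Among 18 measured genes for surface proteins that bind tetraspanins, 0 of 43 probe sets passed with limma over all probe sets. At an unadjusted p below 0.05 there were 5 (11.6%, against 8.06% of all), 4 higher and 1 lower. This list was chosen with earlier results of these data known, so nothing is read from that share. Adam17, a protease that sheds surface proteins, was at 6.63, 6.69 and 6.53 in Alb/AEG-1 and 7.18, 6.93 and 7.07 in WT tumours on 1421859_at (-0.44 ± 0.10, limma adjusted p = 0.596), without overlap. Its other 2 probe sets differed by -0.20 ± 0.11 and -0.13 ± 0.17. The related protease gene Adam10 was at 8.29, 8.32 and 8.20 in Alb/AEG-1 and 8.10, 7.88 and 8.01 in WT tumours on 1428103_at (0.28 ± 0.09, limma adjusted p = 0.602), also without overlap. A second Adam10 probe set, without overlap too, differed by 0.41 ± 0.16 and the remaining one by -0.10 ± 0.10. Cd36, the fatty acid transporter that binds CD9 and CD81 in macrophages, differed by 0.80 ± 0.21 (limma adjusted p = 0.596), with no overlap on 1 of its 3 probe sets, all positive. Cd44, the hyaluronan receptor, differed by 0.54 ± 0.18 on 1 probe set and by -0.07 ± 0.09 on the other, both with overlapping groups. The integrin gene Itga6, whose product pairs with CD151, was at 4.97, 5.74 and 5.91 in Alb/AEG-1 and 5.27, 5.05 and 4.70 in WT tumours on its brighter probe set, with overlap (0.53 ± 0.25). This gene was chosen after its values were seen.

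For the machinery of multivesicular bodies, lysosomes and vesicle release, 17 of 17 genes were measured by 35 probe sets. This list, too, was chosen with earlier results of these data known. By limma 0 passed over all probe sets and 1 had an unadjusted p below 0.05 (2.86%, against 8.06% of all probe sets), with a median difference of -0.03, against -0.01 over all. That was Rab27a, a GTPase that docks multivesicular bodies at the plasma membrane. It was at 4.03, 4.03 and 3.91 in Alb/AEG-1 and 4.28, 4.58 and 4.47 in WT tumours on 1454438_at (-0.46 ± 0.10, limma adjusted p = 0.596). Its other 2 probe sets overlapped and differed by -0.15 ± 0.13 and -0.03 ± 0.08. Chmp4b, an ESCRT-III subunit, differed by 0.17 ± 0.09 on one probe set and by -0.12 ± 0.08 on the other, both without overlap. Sdcbp encodes syntenin, which links CD63 and syndecans to vesicle formation. It differed by 0.15 ± 0.10 on 1450941_at and by 0.01 ± 0.08 on the brighter 1423332_at. Rab27b differed by -0.13 ± 0.09 on 1417215_at and by -0.07 ± 0.11 on 1417214_at.

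**Figure D5:**
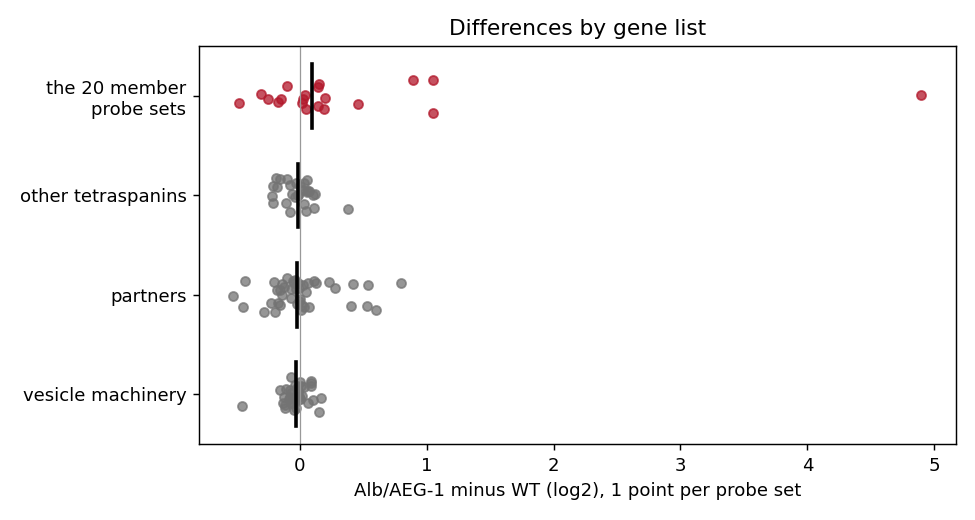
Difference between Alb/AEG-1 and WT tumours (x axis, log2) of every probe set of the named tetraspanins in red and of 3 gene lists in grey, with a black line at each median. The 28 probe sets of other tetraspanins lie between -0.22 and 0.38 and those of the vesicle list between -0.46 and 0.17.

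Genes beside the tetraspanins in the genome were read as well, 2 measured protein-coding neighbours on each side by the gene order of GRCm38.p6, each on its brightest probe set. Of the 32 neighbours that are not members themselves, 0 had an unadjusted limma p below 0.05, where 8.06% of all probe sets did. Beside Tspan8 on chromosome 10, Lgr5, a receptor of R-spondins, was at 6.30, 6.71 and 6.05 in Alb/AEG-1 and 6.53, 6.32 and 5.90 in WT tumours (0.10 ± 0.21). On the other side Ptprr, a receptor-type tyrosine phosphatase, was at 4.01, 4.29 and 3.99 in Alb/AEG-1 and 3.95, 4.28 and 4.21 in WT tumours (-0.05 ± 0.13). Both overlapped between the groups. Cd151 and Tspan4 lie close to each other on chromosome 7, but their values by animal number differ. The higher range lay above the lower by 0.97 log2 for Tspan4, and between -0.15 and 0.04 from it over the 6 Cd151 probe sets. The dimmest of these, 1420921_at, is the other of the 2 probe sets whose ranges do not overlap, in the opposite direction to Tspan4. It was at 5.12, 5.07 and 5.06 in Alb/AEG-1 replicates 1, 2 and 3, against 5.12, 4.72 and 5.00 in WT replicates 1, 2 and 3.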

How the data were processed

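Total RNA from the tumours had been extracted with Trizol, and biotin-labelled cRNA from 5 µg had been hybridized to Affymetrix arrays, per the labels' protocols. The deposited values are log2 levels that the authors made with RMA, per the submitters' processing notes, which give no version. RMA gives all arrays nearly the same distribution, which removes any change common to most genes. The 64 control probe sets were left out. Gene names came from the platform annotation, updated by gene ID against RefSeq's table of GRCm38.p6 (20351 of 20380 single-symbol probe sets matched; 691 had several symbols and 1555 none). Arrays were grouped by genotype label, and each title names its own animal. Replicate numbers follow accession order.

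Differences (Alb/AEG-1 minus WT) were fitted over all 22626 probe sets with limma 3.58.1 in R 4.3.3 (lmFit, eBayes, 2-sided, Benjamini-Hochberg, threshold 0.05). The number of arrays, 3 per group, limits the precision. The fit was tested on simulated data. Plots were drawn with matplotlib 3.10.9. Members and lists were chosen with earlier results of these data known. Named genes are all members, the 4 genes with the smallest unadjusted p in each of the lists of other tetraspanins, partners and vesicle machinery, the 6 genes nearest to Tspan8, and markers set beside a result. The neighbours, the group of Adam10 escorts and Itga6 were added later. Alternatives were trend with robust moderation, renormalization, array weights, a term for the range of animal numbers, filters on dim or cross-binding probe sets, gene means and each array left out. Coordinates are given for promoter windows only.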

Additional observations from a re-analysis of the deposited data

How the results depend on the processing

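The fit was repeated under 14 alternative settings. Over all probe sets limma called 1 (Gbp7). With a term for the range of animal numbers it called 0, with the mean of all probe sets of a gene 2 (Gbp7 and Scd2), and with 1 array left out between 0 and 1, a different probe set in each case where 1 was called. None of the lists of other tetraspanins, partners or vesicle machinery gained a call in these settings. The Tspan8 difference lay between 4.15 (without Alb/AEG-1 replicate 2) and 5.60 (without Alb/AEG-1 replicate 1) with 1 array left out, and was 1.76 as the mean of its 4 probe sets. Apart from gene means, 15 of the 20 member probe sets kept their sign in every setting in which they were measured. The other 5 were 1 each of Tspan2, Tspan4 and Cd82 and 2 of Cd151. Among neighbours, Lgr5 turned to -0.044 with the range term and lay between -0.076 (without Alb/AEG-1 replicate 2) and 0.25 with 1 array left out. Ptprr turned to 0.0011 after renewed quantile normalization and lay between -0.15 and 0.018 (without WT replicate 2) with 1 array left out. The cause of these turns was not tested, and both differences are smaller than their SE. No paired analysis was possible because the labels give no replicate number shared between the groups.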
